A study of Mus musculus with 17 samples.

Results

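Pre-leptotene spermatocytes (PreL) sorted from Nat10-SKO mice were set against spermatogonia (SPG) sorted from WT mice, the stage that comes before PreL in the normal testis. The comparison asked how near the mutant PreL sort lay to that earlier normal stage and which genes differed from it. It held 6 of the 17 libraries of the series, SKO PreL 1 to 3 and WT SPG 1 to 3, taken by their labels. The comparison itself was chosen with earlier results of these data known. Of 23282 genes listed, 13009 reached 10 recovered reads on average across these libraries and were tested, and 10273 did not. The groups differ in both genotype and stage, so the share of each in any difference cannot be told apart.

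All mice were on a C57BL/6J background. In Nat10-SKO mice a Stra8-GFPCre knock-in allele, active in male germ cells before meiosis, excises exons 4 and 5 of a floxed Nat10 allele, and the other Nat10 allele is already null (Nat10 fl/-). WT mice in the study's breeding tests were floxed littermates, and whether the sorted WT mice carried floxed alleles or the Cre is not given in the sources used here, nor are the age and number of animals behind a library or whether animals were pooled. Example sorting profiles in the study came from adult mice. Cells were separated by Hoechst and propidium iodide fluorescence, and RNA was amplified by Smart-seq2 with an ERCC spike-in. The study calls its replicates biological, but no label ties the libraries to separate animals, so p-values measure the spread between these libraries, which may be technical.

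Spermatogonia divide by mitosis, respond to retinoic acid and differentiate under factors such as KIT, SOHLH1 and DMRT1. Retinoic acid then induces Stra8, the cells replicate their DNA for the last time as pre-leptotene spermatocytes, and genes of meiotic prophase rise: cohesins and axis proteins that organise each chromosome, the synaptonemal complex that joins homologues, and the enzymes that make and repair programmed DNA breaks. NAT10 is the acetyltransferase that writes N4-acetylcytidine on RNA.

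Recovered reads totalled 11587442 to 13042071 in WT SPG and 11228805 to 11268541 in SKO PreL, so the depth of the 6 libraries was alike. The libraries labelled SKO PreL were not alike in content. SKO PreL 1 and 2 lay 0.403 apart, as the root mean square (RMS) log2 difference per gene, against up to 0.818 between SKO PreL 3 and the others. Summed Sertoli markers reached 937 and 1182 RPM (reads per 1000000 recovered reads) in SKO PreL 1 and 2 and 83.7 RPM in SKO PreL 3, and values without replicates 1 and 2 are therefore given beside those of all 3. In bulk libraries, fewer cells of a type and less RNA per cell cannot be told apart.

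Nat10 checked the genotype labels. Recovered reads of Nat10 were 485, 350 and 446 in WT SPG 1 to 3 and 168, 160 and 114 in SKO PreL 1 to 3. All SKO PreL libraries were below all WT SPG libraries, and Nat10 fell by 1.39 ± 0.21 (SE) on the log2 scale (limma, adjusted p = 0.00265). With the ERCC-calibrated values left unscaled, the Nat10 call was lost (adjusted p = 0.0615). The counts cover the whole gene, so reads from exons outside the excised pair are included.

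Of the 13009 genes tested, 958 (7.36%) were higher and 395 (3.04%) were lower in SKO PreL, with a limma adjusted p under 0.05 and a log2 fold change beyond 1 in either direction. Among called genes averaging 100 or more reads whose groups did not overlap, the 8 largest log2 rises were those of Rad51ap2, Inha, 4933402E13Rik, Bhmt, Wt1, Cyp17a1, Hsd3b1 and Gstm6, and the largest log2 falls included the spermatid genes Tnp2, Prm1 and Prm2. Fold changes here are differences of log2(rescaled value + 10), in which the deposited values were scaled to a common median over the 6 libraries, and they understate the change of genes with few reads. The median log2 fold change of all genes was 0.04. When the ERCC-calibrated values were left unscaled the median was 0.76, and 3774 genes were higher and 255 lower, so that 6.33% of the calls were lower instead of 29.2%. SKO PreL 3 alone against the 3 WT SPG libraries, where the spread comes from WT SPG only and fewer calls can be made, gave 217 genes higher (1.72% of 12596) and 110 lower (0.873%).

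Many early meiotic prophase genes rose. Of 39 listed genes 36 were tested and 21 of these were higher, against 7.36% of all genes, 0 were lower and 15 were not called, with a median log2 fold change of 1.19 against 0.04 over all genes. The summed level of the list was 7088 to 7234 RPM in WT SPG and 11253 to 15888 RPM in SKO PreL, a range that did not overlap. SKO PreL 3, the library with the fewest Sertoli and Leydig reads, had the highest value of the 3 for all 21 genes that rose. With SKO PreL 3 alone, 19 of the 36 were higher and the median was 1.65, and without SKO PreL 3 the count was 17.

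**Figure D1:**
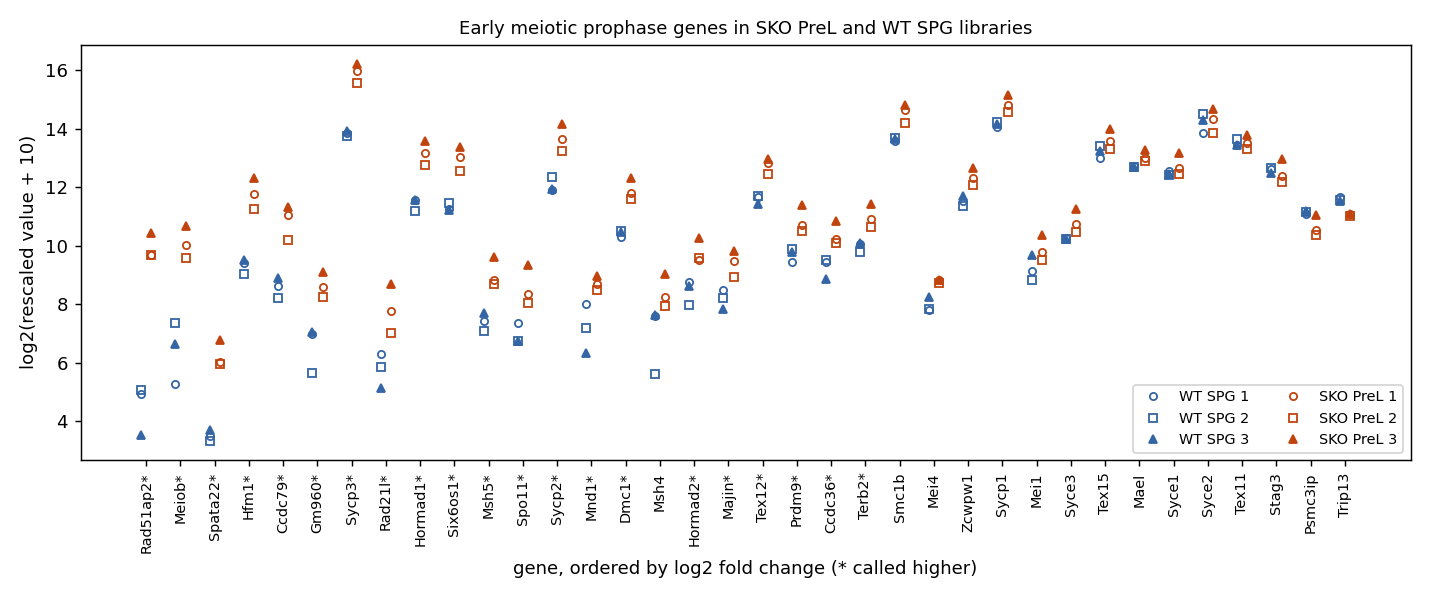
Level of the 36 tested early meiotic prophase genes in each library, as log2(rescaled value + 10), ordered by log2 fold change, with blue symbols for WT SPG 1 to 3 and red symbols for SKO PreL 1 to 3. Rad51ap2 stands at the left with a log2 fold change of 5.42, asterisks mark the 21 called genes, and the groups overlap or come close at the right, where Syce2, Tex11 and Stag3 lie.

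Among axis proteins and cohesins, Sycp3, which builds the lateral element of the synaptonemal complex, had 10825, 8216 and 9862 recovered reads in WT SPG and 39323, 30932 and 43165 in SKO PreL. The groups lay far apart, and Sycp3 rose by 2.09 ± 0.16 on the log2 scale (adjusted p = 0.000252). Its partner Sycp2 rose by 1.63 ± 0.22 (2778, 3103 and 2488 reads against 7809, 6145 and 10374). Hormad1, an axis protein that guards against premature repair, had 2206, 1366 and 1917 reads in WT SPG and 5521, 4444 and 6798 in SKO PreL and rose by 1.73 ± 0.19, and Hormad2 rose by 1.33 ± 0.27. The meiotic kleisin Rad21l had 50, 28 and 16 reads in WT SPG and 127, 77 and 229 in SKO PreL and rose by 2.09 ± 0.48, a call that was lost without WT SPG 3 and with SKO PreL 3 alone. Of the cohesin subunits, Smc1b had a log2 fold change of 0.91 ± 0.16 and Stag3 of -0.09 ± 0.18, and neither was called.

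In the central region of the synaptonemal complex the members differed. Tex12 rose by 1.17 ± 0.15 and Six6os1 by 1.68 ± 0.18. Sycp1, the transverse filament, had 12434, 11479 and 11806 reads in WT SPG and 17572, 15525 and 20286 in SKO PreL, with a log2 fold change of 0.69 ± 0.15 (adjusted p = 0.0114), under the fold threshold. Syce1, Syce2 and Syce3 had log2 fold changes of 0.29, 0.07 and 0.60. The groups overlapped for Syce2, with 10753, 13849 and 12888 reads in WT SPG and 12526, 9490 and 14580 in SKO PreL.

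Genes of break formation and repair included the largest rise on the log2(rescaled value + 10) scale, though not by the ratio of means. Rad51ap2, a meiotic gene related to a partner of the recombinases (chr12:11456079-11462928, GRCm38), had 15, 14 and 1 reads in WT SPG and 497, 517 and 770 in SKO PreL, a log2 fold change of 5.42 ± 0.44 (adjusted p = 0.000253). Meiob, a single-strand DNA binding protein of recombination listed as 4930528F23Rik, had 21, 91 and 58 reads in WT SPG and 631, 491 and 920 in SKO PreL and rose by 3.68 ± 0.47. Spata22, which acts with MEIOB, had 1, 0 and 2 reads in WT SPG and 33, 33 and 56 in SKO PreL, a ratio of 44.3 with a 95% counting interval of 14.8 to 218. Both partners were thus near the limit of detection or low in WT SPG and well counted in SKO PreL.

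Hfm1, a helicase of crossover formation, rose by 2.46 ± 0.24 (493, 303 and 463 reads against 2090, 1555 and 2881), and Msh5, of the MutS complex that stabilises crossover intermediates, by 1.64 ± 0.30. The meiotic recombinase Dmc1 rose by 1.5 ± 0.18, with 909, 853 and 897 reads against 2175, 1972 and 2886. Spo11, which makes the breaks, had 114, 57 and 62 reads in WT SPG and 191, 163 and 357 in SKO PreL and rose by 1.63 ± 0.36, a call that was lost without WT SPG 3 and in a joint fit of all 17 libraries. Prdm9, which marks break sites, rose by 1.16 ± 0.22, a call that was lost without SKO PreL 3. The telomere attachment genes Terb1, Terb2 and Majin (listed as Ccdc79, 4933406J08Rik and 1700123I01Rik) rose by 2.27, 1.02 and 1.22. Against this direction, Trip13, an ATPase that removes HORMA domain proteins, had a log2 fold change of -0.52 ± 0.11 (adjusted p = 0.0108), and Psmc3ip, a DMC1 cofactor, of -0.49 ± 0.17 (adjusted p = 0.066).

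The promoters of 3 of these genes are shown because their transcripts differed clearly between the sorts. They are from RefSeq (GRCm38.p6, 250 bases before to 50 after the start of the gene), which held promoters for 30 of the 36 genes. Capitals mark the E2F-type motif GCGGGAA and the E-box CACGTG, searched on both strands. In order, they lie at chr12:11455805-11456104, chr10:88459337-88459636 and chr3:95559427-95559726, all on the plus strand.
Rad51ap2: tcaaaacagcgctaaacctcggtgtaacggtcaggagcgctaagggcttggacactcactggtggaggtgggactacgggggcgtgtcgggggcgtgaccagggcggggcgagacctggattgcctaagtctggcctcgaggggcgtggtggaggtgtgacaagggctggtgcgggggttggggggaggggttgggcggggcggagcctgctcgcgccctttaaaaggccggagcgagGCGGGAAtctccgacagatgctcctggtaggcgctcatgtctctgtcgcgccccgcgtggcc
Sycp3: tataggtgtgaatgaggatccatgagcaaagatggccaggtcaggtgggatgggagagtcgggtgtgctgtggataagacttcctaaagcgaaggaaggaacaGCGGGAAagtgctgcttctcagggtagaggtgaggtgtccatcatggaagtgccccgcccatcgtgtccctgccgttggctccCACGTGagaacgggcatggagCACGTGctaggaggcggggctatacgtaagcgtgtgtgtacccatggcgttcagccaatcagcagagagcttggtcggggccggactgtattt
Hormad1: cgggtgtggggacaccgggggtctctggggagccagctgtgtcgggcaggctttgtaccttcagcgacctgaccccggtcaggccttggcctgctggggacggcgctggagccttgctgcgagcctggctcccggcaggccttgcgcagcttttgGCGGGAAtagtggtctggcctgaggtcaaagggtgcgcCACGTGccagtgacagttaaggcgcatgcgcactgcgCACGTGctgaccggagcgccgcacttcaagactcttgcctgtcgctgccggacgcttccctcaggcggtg
GCGGGAA was found in 10 of the 30 genes (33.3%), and in 5.29% of all 27025 genes with a promoter and 10.3% of the 9319 tested genes with one. CACGTG was found in 8 of the 30 (26.7%), against 8.09% of all and 11.8% of tested genes. CNCCTCAG, the motif tied to STRA8 and MEIOSIN binding, was in 8 of the 30 (26.7%), against 9.12% and 10.9%, and was in none of the 3 promoters shown. Syce2, whose level differed little between the sorts, holds all 3 motifs. A match describes letters and is no evidence of binding.

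Regulators that act before prophase moved less. Of 7 tested meiotic entry regulators 0 were higher, against 7.36% of all genes, and 1 was lower (14.3%, against 3.04%). Stra8 had 5057, 3151 and 3861 reads in WT SPG and 4220, 4014 and 5370 in SKO PreL, groups that overlapped, with a log2 fold change of 0.31 ± 0.17 (adjusted p = 0.22). The SKO mice carried the Stra8-GFPCre knock-in allele, and its effect on the Stra8 counts was not tested. Meioc, which lengthens meiotic prophase and is listed as Gm1564, had 0.45 ± 0.19 (adjusted p = 0.119), Ythdc2, its RNA helicase partner, 0.34 ± 0.20 (adjusted p = 0.254) and Dazl, a translational regulator, 0.40 ± 0.16 (adjusted p = 0.105). Rec8, a meiotic cohesin kleisin, had 529, 435 and 305 reads in WT SPG and 137, 172 and 212 in SKO PreL. It fell by 1.12 ± 0.25 (adjusted p = 0.0129), a call that was lost without SKO PreL 1, with SKO PreL 3 alone and with unscaled values.

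Spermatogonial genes were present in the mutant PreL sort, as they were in WT PreL. The differentiating spermatogonia list summed to 801 to 879 RPM in WT SPG, 709 to 746 RPM in WT PreL and 652 to 758 RPM in SKO PreL. On 1 scale over all libraries, Kit averaged 3177 in WT PreL and 2888 in SKO PreL, and Dmrt1 6830 and 6607. Dmrtb1 differed more, at 3415 and 1235, as did Sohlh2, at 826 and 1736. The receptor Kit had 2268, 1949 and 1737 reads in WT SPG and 1524, 1647 and 1412 in SKO PreL, every SKO PreL library below every WT SPG library, with a log2 fold change of -0.25 ± 0.12 (adjusted p = 0.164). With unscaled values the log2 fold change of Kit turned to 0.51 (adjusted p = 0.0265). Dmrt1, a regulator that holds spermatogonia in mitosis, had -0.34 ± 0.13 (adjusted p = 0.0947), which likewise turned to 0.42 when unscaled. Of the 8 differentiating spermatogonia genes, Dmrtb1, which coordinates the move from mitosis to meiosis, was the 1 that was called. Its reads were 1669, 1613 and 1792 in WT SPG and 639, 696 and 623 in SKO PreL, and it fell by 1.25 ± 0.13 (adjusted p = 0.000642), a call that was lost when unscaled. Sohlh2, a transcription factor of differentiation, moved the other way, with 610, 423 and 465 reads against 816, 977 and 953 and a log2 fold change of 1.0 ± 0.15 (adjusted p = 0.00276), just under the threshold.

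Among 15 tested undifferentiated spermatogonia genes 2 (13.3%) were higher, against 7.36% of all genes, and 0 lower, with a median log2 fold change of 0.58. Nanos3, an RNA-binding protein of progenitors, had 20, 4 and 10 reads against 40, 93 and 23 (log2 fold change 1.74 ± 0.54), a call that was lost under 10 of 17 alternatives. Upp1, uridine phosphorylase, had 2, 0 and 2 reads against 73, 154 and 36 (3.50 ± 0.54) and was lost with SKO PreL 3 alone. The defining markers Zbtb16 and Gfra1 had log2 fold changes of 0.47 ± 0.48 and -0.27 ± 0.86, and Gfra1 was at 0 reads in WT SPG 2 and SKO PreL 3. With SKO PreL 3 alone, 0 of 14 members were higher and the median was -0.22.

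Spermatid transcripts were present in WT SPG and nearly absent in SKO PreL. Of 19 tested spermatid genes 14 were lower, against 3.04% of all genes, and 0 were higher, with a median log2 fold change of -2.95, also with genes at 0 in SKO PreL set at their bound. The list summed to 163 to 440 RPM in WT SPG and 15.8 to 25.3 RPM in SKO PreL. Tnp2, a transition protein of spermatid chromatin, had 1549, 436 and 1009 reads in WT SPG and 4, 6 and 6 in SKO PreL, and it fell by 6.17 ± 0.39 on the log2(rescaled value + 10) scale, the largest fall on that scale though not by the ratio of means (adjusted p = 7.03e-05). The protamine Prm1 fell by 5.16 ± 0.44. The protamine Prm2 had a log2 fold change of -5.13 ± 0.50, and Akap4 and Gapdhs of the sperm tail had -4.33 ± 0.50 and -3.23 ± 0.40. Tssk1, a kinase of late spermatids, had 87, 75 and 15 reads in WT SPG and 0 in every SKO PreL library. Against 3 reads in 1 library, its mean in WT SPG was at least 16.7-fold higher. The count was 8 of 20 with SKO PreL 3 alone, at a median of -2.86.

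Spermatids are no part of a spermatogonial population, and WT SPG held their transcripts at levels that differed between the 3 WT libraries. By flow cytometry, the study detected no haploid round spermatids in testes of Nat10-SKO mice. The spermatid sum was 739 to 1216 RPM in WT PreL and 6.68 to 22.5 RPM in SKO SPG. Whether spermatid cells or free spermatid RNA entered the WT sort was not tested. In the late spermatocyte list 4 of 10 tested genes were lower (against 3.04% of all genes), 1 was higher and 5 were not called. Ldhc, the testis lactate dehydrogenase, had 1648, 536 and 1106 reads in WT SPG and 19, 47 and 39 in SKO PreL and fell by 4.56 ± 0.37. Pgk2, the testis phosphoglycerate kinase, had 214, 132 and 274 reads in WT SPG and 0, 0 and 1 in SKO PreL, a ratio of 570 with a counting interval of 102 to 22536. Outside the list, Crisp2, a sperm protein of the head and tail, had 682, 203 and 671 reads against 7, 9 and 10, and Hmgb4, a chromatin protein of late male germ cells, had 362, 76 and 200 against 0, 0 and 1. 1700027A15Rik, with a log2 fold change of -4.54, was also among the 8 largest falls chosen in the same way. Piwil1 and Adam3 fell by 1.81 ± 0.46 and 4.15 ± 0.48.

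The exception in that list was Mybl1, the transcription factor that starts the pachytene programme. It had 1, 0 and 2 reads in WT SPG and 133, 90 and 234 in SKO PreL, a log2 fold change of 4.42 ± 0.49 (adjusted p = 0.000736) and a ratio of 166 with a counting interval of 56.4 to 807. Mybl1 was highest in SKO PreL 3, as the early prophase genes were, and its call held under every alternative run.

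Genes of somatic testis cells were higher in SKO PreL, mainly in replicates 1 and 2. Of 12 tested Sertoli genes 11 were higher and 0 lower, and of 8 tested Leydig genes 7 were higher and 0 lower. Over all genes, 7.36% were higher and 3.04% lower. The median log2 fold changes were 3.25 and 4.04, or 3.37 and 4.30 with genes at 0 in WT SPG set at their bound. Leaving out 1 library lowered the Sertoli count to 6 without WT SPG 2, WT SPG 3 or SKO PreL 1 and to 7 without SKO PreL 2, and the Leydig count to 4 without WT SPG 3, SKO PreL 1 or SKO PreL 2. The Sertoli sum was 35.6 to 46.0 RPM in WT SPG and 937, 1182 and 83.7 RPM in SKO PreL, and the Leydig sum 5.61 to 15.5 RPM in WT SPG and 282, 469 and 41.2 RPM in SKO PreL. Every SKO PreL library lay above every WT SPG library in both sums, but SKO PreL 3 by far less. Wt1, a Sertoli transcription factor, had 0, 7 and 5 reads in WT SPG and 482, 523 and 94 in SKO PreL (log2 fold change 4.96 ± 0.60). Inha, the inhibin alpha subunit that Sertoli cells secrete, had 11, 0 and 0 reads against 592, 767 and 64 (5.28 ± 0.78). Sox9, the Sertoli fate factor, had 7, 38 and 23 reads against 508, 513 and 56 (3.38 ± 0.75).

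Cyp17a1 and Hsd3b1, enzymes of testosterone synthesis in Leydig cells, had log2 fold changes of 4.91 ± 1.02 and 4.81 ± 0.95. Cyp17a1 shows the spread with 7, 1 and 61 reads in WT SPG and 858, 1912 and 81 in SKO PreL. With SKO PreL 3 alone 0 Sertoli genes of 7 tested and 0 Leydig genes of 6 tested were called, at medians of 1.13 and 2.43. Bhmt, betaine-homocysteine methyltransferase, was at 0 reads in every WT SPG library and at 340, 438 and 38 in SKO PreL, with the lowest of these at least 13.4-fold higher than 3 reads in 1 WT SPG library. Gstm6, a glutathione transferase, and the X-linked 4933402E13Rik were the remaining genes among the 8 largest rises, at 4.78 ± 0.92 and 5.07 ± 0.74. With SKO PreL 3 alone, the log2 fold changes of Inha, Wt1 and Cyp17a1 were 3.01, 3.34 and 2.31, not past the test, while that of Rad51ap2 was 5.80 and was called.

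Macrophage genes were higher in 8 of 13, at a median of 2.23 (2.24 with bounds), with sums of 28.1 to 37.6 RPM in WT SPG and 203, 214 and 93.3 RPM in SKO PreL. Beside the list counts given here for all 6 libraries, 7.36% of all genes were higher and 3.04% lower. H2-Ab1, an MHC class II chain, was alike in the 3 mutant libraries, with 21, 32 and 70 reads in WT SPG and 497, 520 and 428 in SKO PreL (3.60 ± 0.37), and it was the 1 macrophage gene still called with SKO PreL 3 alone. The macrophage count was 4 without SKO PreL 1 and 5 without WT SPG 1, WT SPG 3 or SKO PreL 2. The defining macrophage marker Adgre1, listed as Emr1, was at 0 in WT SPG and at 53, 62 and 0 reads in SKO PreL. Immediate early genes, which respond to stress and tissue handling, were higher in 10 of 20, which became 5 without SKO PreL 1 or SKO PreL 2 and 6 without WT SPG 2 or WT SPG 3. Fos had 138, 108 and 99 reads against 923, 1383 and 311 (2.74 ± 0.40), and 0 of 17 were called with SKO PreL 3 alone. Peritubular and stromal genes were higher in 3 of 9 (Acta2, Mylk and Col3a1) and lower in 1 (Actg2), with 1 higher without WT SPG 3 or SKO PreL 1 and 2 without WT SPG 2 or SKO PreL 2, and of the 2 endothelial genes tested Cdh5 was higher. The part of these cells in the rise of other genes was not tested.

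Across the whole transcriptome, SKO PreL stood apart from WT SPG by more than the libraries of each group did. The mean RMS log2 difference per gene was 1.15 between the groups (1.02 to 1.25), 0.802 within WT SPG and 0.652 within SKO PreL, so that the distance between groups was 1.58 times the mean within groups. The exact permutation test over 3 against 3 libraries gave p = 0.1, the smallest it can give. SKO PreL lay nearer to WT SPG than to WT PreL, at 1.15 against 1.25, a difference of 0.103 (exact permutation test, two-sided, p = 0.1, again the smallest possible). It lay nearer still to both mutant neighbours, at 0.959 to SKO SPG and 0.973 to SKO LZ (the sort of leptotene and zygotene spermatocytes), and farthest from WT LZ at 1.85. WT PreL itself was 0.974 from WT SPG. SKO PreL 3 was the nearest of the 3 to WT SPG, at 1.03 against 1.2 and 1.23, and the farthest from SKO LZ, at 1.15 against 0.915 and 0.859.

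On the line from the mean of WT SPG (0) to the mean of WT PreL (1), the SKO PreL libraries stood at 0.278, 0.290 and 0.211. WT SPG libraries, each left out of its own mean, stood at 0.399, 0.139 and 0.253, and WT PreL libraries at 0.707, 0.895 and 0.636. SKO PreL values thus fell within the range of the left-out WT SPG values and outside that of WT PreL. The values are not on 1 scale, since a left-out WT library was placed against a mean without it and SKO PreL against full means. The left-out WT SPG libraries averaged 0.264 and not 0, so their overlap with SKO PreL cannot show that both lie at 1 stage. SKO SPG libraries stood at -0.0934 to 0.0994. SKO PreL libraries were also 0.901 to 1.11 away from that line, against 0.598 to 0.745 for the left-out WT SPG libraries. Without the listed marker genes of other cell types and the immediate early genes, 13434 of 13530 genes remained. The distance to WT SPG was then 1.13 and the mean position 0.263. Other transcripts of those cell types stayed in, and their part was not tested.

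The position along the line hid lists that moved in different ways. WT PreL against WT SPG and SKO SPG against WT SPG share the WT SPG libraries with the comparison described here, so their values are only set side by side. Early meiotic prophase genes had a median log2 fold change of 1.19 in SKO PreL, 0.73 in WT PreL (10 of 36 called higher, against 2.54% of all genes) and 0.30 in SKO SPG (2 of 35, against 3.95%). On 1 scale over all libraries, Sycp3 averaged 16847 ± 851 (SD, n = 3) in WT SPG, 28641 ± 600 in SKO SPG, 32818 ± 4795 in WT PreL and 72232 ± 16445 in SKO PreL, the highest level of the 4 groups. Stra8 had its highest mean in WT PreL (14714 ± 1367), then SKO SPG (10170 ± 895), SKO PreL (8662 ± 1987) and WT SPG (6980 ± 894), where SKO PreL overlapped with both SKO SPG and WT SPG. The effect of the Stra8-GFPCre knock-in on these Stra8 levels was not tested.

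The spermatid list went opposite ways, with a median of -2.95 in SKO PreL, 1.48 in WT PreL and -2.55 in SKO SPG. In SKO SPG 13 of 19 were lower, against 2.06% of all genes, and in WT PreL 10 of 19 were higher. Spermatid transcripts were thus lower in both mutant sorts and higher in the WT PreL sort than in WT SPG. Sertoli genes had medians of 3.25, 1.34 and 0.50, while macrophage genes had medians of 2.23, 0.99 and 2.84 and immediate early genes of 1.32, 0.00 and 2.44. Leydig genes had 4.04, 0.23 and 2.56, and peritubular and stromal genes 1.84, -0.09 and 2.52. In SKO SPG, 5 of 8 Leydig and 8 of 11 peritubular and stromal genes were higher, against 3.95% of all genes. Cyp17a1 and Hsd3b1 had log2 fold changes of 4.28 and 4.01 there. The members tested differ between comparisons, with 12, 8 and 7 Sertoli and 8, 5 and 8 Leydig genes. None of these differences between comparisons was tested. For single genes, Rec8 had log2 fold changes of -1.12 in SKO PreL, -1.36 in WT PreL and -0.04 in SKO SPG, Dmrtb1 of -1.25, 0.16 and -0.67, and Mybl1 of 4.42, 3.53 and 1.86.

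Few genes of DNA replication, mitosis and ribosomes passed the fold threshold. Of 49 DNA replication genes 1 was higher (Pola1, the polymerase alpha catalytic subunit, 1.04 ± 0.28) and 0 were lower, with a median of -0.20. Without the fold threshold, 14 of the 49 had an adjusted p under 0.05 and a lower level, against 8.77% of all genes, and 2 a higher level, against 10.9%. Mcm3, of the replicative helicase, had 2735, 2496 and 2811 reads in WT SPG and 1470, 1680 and 1240 in SKO PreL (-0.76 ± 0.12), and Cdc6, which loads the helicase, had 1226, 893 and 951 against 506, 625 and 403 (-0.88 ± 0.15). Of 25 mitosis genes 2 (8.0%) were higher, a share near the 7.36% of all genes, Bub1 of the spindle checkpoint at 1.32 ± 0.19 and Top2a, which untangles DNA, at 1.31 ± 0.17. Among the SKO PreL libraries, both were highest in SKO PreL 3. WT PreL also held more of both than WT SPG. On 1 scale over all libraries, Top2a averaged 5922 in WT SPG, 21347 in WT PreL and 14800 in SKO PreL, and Bub1 3394, 7704 and 8566.

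Ribosomal protein genes summed to 49964 to 52418 RPM in WT SPG and 39159 to 43653 RPM in SKO PreL. Of 75 tested, 0 were lower past the fold threshold and 1 (1.33%), Rps4x, was higher, against 7.36% of all genes. Without that threshold, 30 had an adjusted p under 0.05 and a lower level, against 8.77% of all genes. The median was -0.32. These genes have many near-identical pseudogene copies, so their counts from uniquely mapped reads are uncertain. The direction of both the replication and the ribosomal protein lists holds only relative to other genes, since their medians turned to 0.56 and 0.44 with unscaled values, under the 0.76 of all genes. In the ribosome biogenesis list 1 of 32 genes (3.1%) was lower, a share near the 3.04% of all genes. It was Rrn3, an RNA polymerase I initiation factor (6480, 10338 and 8806 reads against 3090, 3468 and 4412, -1.09 ± 0.24). The call was lost under 5 alternatives including SKO PreL 3 alone.

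**Figure D2:**
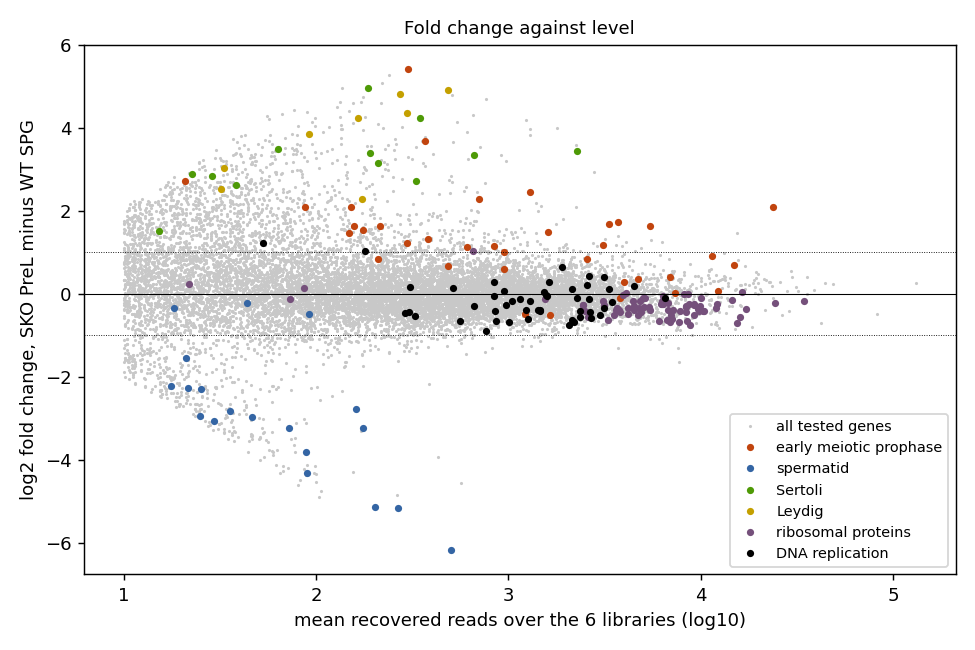
Log2 fold change of SKO PreL minus WT SPG against the log10 of the mean recovered reads for the 13009 tested genes (grey) with 6 gene lists in colour, and dotted lines at the fold threshold. Spermatid genes lie at or below 0, early meiotic, Sertoli and Leydig genes mostly above 0, and ribosomal protein and DNA replication genes close to 0 at high read counts.

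Retinoic acid genes were higher in 4 of 13 (30.8%, against 7.36% of all genes), but in 1 without SKO PreL 1 and 2 of 14 without WT SPG 3. Aldh1a1, a retinaldehyde dehydrogenase, had 83, 129 and 173 reads in WT SPG and 2577, 4389 and 429 in SKO PreL (3.83 ± 0.64), the same split between replicates as the Sertoli and Leydig genes, and Rdh10, the retinol dehydrogenase, had 341, 176 and 159 against 391, 383 and 438 (1.02 ± 0.25), with SKO PreL 3 the highest. Dhrs3, a retinaldehyde reductase, had 8, 7 and 0 reads against 91, 92 and 23 (2.70 ± 0.58). In the integrated stress response 1 of 18 (5.56%) was higher, under the 7.36% of all genes. That gene, Ddit3, had 89, 83 and 69 reads against 198, 201 and 179 (1.32 ± 0.25). Among 16 p53 targets 2 (12.5%) were higher, against 7.36% of all genes, the pro-apoptotic Pmaip1 at 1.21 ± 0.31 and the kinase Plk2 at 1.36 ± 0.22. These 3 genes were nearly equal in the 3 SKO PreL libraries, as H2-Ab1 was and as the Sertoli and Leydig sums were not. Which cells their transcripts came from was not tested. In the piRNA pathway (19 genes) and in DNA methylation and PRC1.6 (15 genes), limma called 0 genes, while 4 and 8 had an unadjusted p under 0.05. On recovered reads edgeR called 0 in both lists, and DESeq2 called 1 piRNA pathway gene lower and 0 of the other list.

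The calibrated sum of gene counts was higher in SKO PreL when the spike-in was taken at face value. Reverse transcription used an oligo(dT) primer, so the sum stands for polyadenylated transcripts and not for total RNA. The ERCC-calibrated totals averaged 14483069 ± 1408430 in WT SPG and 24592377 ± 2897567 in SKO PreL (SD, n = 3 each), a ratio of 1.70, with every SKO PreL library above every WT SPG library (exact permutation test, two-sided, p = 0.1, the smallest possible). The calibration factors relative to WT SPG 1 were 1 to 1.37 in WT SPG and 2 to 2.48 in SKO PreL, so the difference lay in the spike-in calibration and not in the number of reads. Errors in the spike-in or the cell count would enter it directly, and their part was not tested. All other values above are relative to the other genes of a library.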

How the data were processed

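RNA of sorted spermatogenic cells was amplified by Smart-seq2 and sequenced. The authors trimmed and mapped reads to mm10, counted uniquely mapped reads per gene (the submitters' processing notes name TopHat2 2.1.1, HTSeq 0.11.2 and Cufflinks 2.2.1) and deposited signal values, which are those counts multiplied by 1 factor per library, set by the spike-in and calibrated to the number of cells used. The table held no ERCC entry. Dividing each library by its smallest value above 0 gave whole reads for 100% of values (tolerance 0.01 reads).

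Size factors by the median of ratios rescaled the deposited signal of the 6 libraries. Genes averaging 10 or more reads entered limma-trend (limma 3.58.1, R 4.3.3) on the log2 scale with a pseudocount of 10, and p-values were adjusted by Benjamini-Hochberg. Calls required an adjusted p under 0.05 with a log2 fold change beyond 1 either way, as in the study's methods. A count test was not the main test because the deposited values are calibrated. edgeR 4.0.16 and DESeq2 1.42.0 on recovered reads were alternatives, with other scalings, pseudocounts of 1 and 50, other filters and left-out libraries. Distances used size factors over 17 libraries, and exact permutation tests compared libraries. No 2 replicates agreed within sampling noise. Genes with 0 reads in a group were bounded against 3 reads in 1 library, and those with 1 to 3 reads were given as a ratio with an exact 95% interval, which covers counting error only.

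The 21 gene lists (462 entries, 5 not listed in the table) and the comparison itself were chosen with earlier results of these data known. Named genes are Nat10, list members, and in each direction the 8 largest changes that were called, averaged 100 or more reads and did not overlap between groups, plus exceptions within a list. The values of 1 list member are not reported here. On simulated data (13008 genes), limma recovered 16 of 100 genes changed 2-fold and 96 of 100 changed 4-fold, with 5 false calls. Whether the spread between simulated libraries matched that of the real ones, where the SKO PreL libraries were uneven, was not tested. These figures therefore describe the simulated data only, and not the recovery or the false calls in this comparison. Calls in the simulation required an adjusted p under 0.05 without the fold threshold, so the full calling rule was not simulated.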

Additional observations from a re-analysis of the deposited data

How the results depend on the processing

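The counts of 958 higher and 395 lower genes changed by less than 1.5 times with TMM scaling, a pseudocount of 1, no filter, edgeR, DESeq2 and 1 fit of all 17 libraries. With unscaled ERCC-calibrated values they were 3774 and 255, with genes averaging 50 or more reads 595 and 197, with a pseudocount of 50 the lower count was 249, and without the fold threshold 1141. Each library left out in turn gave 436 to 1157 higher and 229 to 433 lower genes, the lowest in both directions without SKO PreL 1, and 581 were higher without WT SPG 3 and 573 without SKO PreL 2. SKO PreL 3 alone, chosen after seeing the data, gave 217 and 110, with the spread taken from WT SPG only, so that a call lost there does not show a smaller change. The mean position between WT SPG and WT PreL was 0.260, 0.389 with unscaled values and 0.211 with at least 50 reads. The distance ratio, the difference of distances and the ratio of totals kept their direction under every alternative run. Of 44 named genes that were called, 22 kept the call under all alternatives and 0 changed sign. Among genes not called, Kit and Dmrt1 turned to 0.51 and 0.42 with unscaled values, and Zbtb16 to -0.26 with SKO PreL 3 alone.

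Replicate numbers are shared by the groups, but same-numbered libraries did not deviate together (correlations of 0.012, -0.067 and -0.0006), and no pairing is stated. The replicate block gave 945 higher and 346 lower genes.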

Other observations

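Of 415 called higher genes averaging 100 or more reads without overlap, list members included, 211 were highest in SKO PreL 3. It was the library with the fewest Sertoli and Leydig reads. Among all 958 genes called higher, 315 were highest and 577 lowest in SKO PreL 3. Those of the 211 named here are outside the lists and were chosen after their values were seen. Fbxo47, an F-box gene needed for meiosis, had 120, 32 and 25 reads in WT SPG and 646, 424 and 897 in SKO PreL, a log2 fold change of 3.69 (adjusted p = 0.00124). Spdya, a CDK2 activator at meiotic telomeres, had 270, 203 and 164 reads against 1235, 914 and 1742, a log2 fold change of 2.67. Ccnb3, a cyclin of early meiosis, had 166, 179 and 221 reads against 560, 526 and 1207, a log2 fold change of 2.0.

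Among abundant genes, averaging 1000 or more reads, 14 were called lower without overlap, and none of them is in the spermatid or late spermatocyte list. The largest falls were those of Ddhd2, a phospholipase (9113, 14187 and 12360 reads against 2993, 3205 and 4244), which fell by 1.64 on the log2 scale, of Twf1, an actin-binding protein, which fell by 1.31, and of Pttg1, the securin that holds sister chromatids together until anaphase (5366, 4967 and 5934 against 2151, 2074 and 1842), which fell by 1.30. In WT PreL against WT SPG, the log2 fold changes of Ddhd2, Twf1 and Pttg1 were -1.70, -1.91 and -0.56.

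Calls were also counted by chromosome, with no test of the difference. Of 488 tested X-linked genes 71 were higher (14.5%), against 7.16% of 11194 autosomal genes, with a median log2 fold change of 0.19 against 0.04. Single autosomes ranged from 4.65% to 10.4%. Without SKO PreL 1 the X-linked count was 32 (6.56%), against 3.25% of autosomal genes, and with SKO PreL 3 alone it was 18 of 470 (3.83%), against 1.66% of autosomal genes. Tsx and Rhox8, genes of Sertoli cells on the X, had 55, 15 and 38 and 67, 50 and 57 reads in WT SPG and 605, 611 and 73 and 764, 973 and 72 in SKO PreL, while the X-linked Ube2a, a ubiquitin-conjugating enzyme, had 41, 58 and 48 against 371, 381 and 466. The part of somatic RNA in this share was not tested. In WT PreL and SKO SPG against the same WT SPG libraries, 2.77% and 5.73% of X-linked genes were higher. The shares of all genes higher in those comparisons were 2.54% and 3.95%.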
